A study of Mus musculus with 4 samples.

Results

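Usp8 encodes a deubiquitinase, an enzyme that removes ubiquitin from other proteins. Its transcript and those of 7 genes for proteins known to bind it, regulate it or serve as its substrates were read in double-positive (DP) thymocytes, immature T cells that carry CD4 and CD8 at once. The 8 genes, Usp8, Stam, Stam2, Hgs, Grap2, Stambp, Rnf41 and Otub1, were taken by the gene name in the array design. They are 8 of 28095 gene names on the array and had 17 of the 41174 non-control probes, from 1 probe for Hgs and Stambp to 4 for Rnf41. USP8ff_CD4Cre mice carried loxP-flanked Usp8 alleles and a CD4Cre transgene, which as background is driven by Cd4 regulatory sequences and is active by the DP stage. The controls, USP8ff, were sex-matched littermates with the same flanked alleles and no Cre. All mice were untreated and 6 to 12 weeks old, and DP cells of 2 mice were combined in each sample, which gave 2 USP8ff_CD4Cre pools and 2 USP8ff pools from 8 mice. No group carried Cre with unflanked alleles, so an effect of Cre and an effect of the deletion cannot be told apart. Each p-value reflects no spread beyond that between pools, and limma draws each gene's or probe's spread toward that of all those fitted. The SE and interval of each difference share this, and having 4 arrays limits their precision.

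Ubiquitin attached to a receptor at the cell surface marks it for sorting into the lysosome. At the endosome the ubiquitin is read by ESCRT-0, a complex of HRS, encoded by Hgs, and STAM or STAM2. USP8 and the deubiquitinase AMSH, encoded by Stambp, both bind the SH3 domain of the STAM proteins and trim ubiquitin there. GADS, encoded by Grap2, is an adaptor of the T cell receptor signalling complex whose SH3 domain can also bind USP8. RNF41, also called NRDP1, is a ubiquitin ligase that USP8 deubiquitinates and stabilises, and OTUB1 is a further deubiquitinase reported to act with USP8.

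Both Usp8 probes are shown because the result for the deleted gene rests on them, and their positions bear on what they report. Each probe has 60 bases, and the first 30 are printed 5′ to 3′. Coordinates come from the deposited scanner files (mm9).
Usp8 probe 1, chr2:126559000-126559059, plus strand: accccattccaattaattaataattggaaa
Usp8 probe 2, chr2:126584363-126584422, plus strand: tattgacgtctacaaattgcagcctcacat
Probe 1 was designed on the sequence AK040791 and probe 2 on the RefSeq transcript NM_019729, and 25303 bases lie between them. Whether either lies in an exon, an intron or a UTR was not annotated in the files. None of the 17 probes shared a run of 20 bases, on either strand, with a probe of another gene on the array. Where the flanked part of Usp8 lies was not given in the sources used. A probe lying outside it reports the level of the transcript and does not check the deletion.

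Usp8 signal was lower in both USP8ff_CD4Cre pools. Signals are given as a percentage of the 75th percentile of the array's non-control spots. Probe 2 gave 49.1% and 42.6% in replicates 1 and 2 of USP8ff_CD4Cre, against 85.2% and 75.7% in those of USP8ff. The 2 groups did not overlap, with USP8ff_CD4Cre lower, as for 16.3% of all genes. In the fit over genes the log2 difference, USP8ff_CD4Cre minus USP8ff, was -0.81 ± 0.13 (SE), with a 95% interval of -1.15 to -0.48, which left 56.9% of the USP8ff signal (45.1% to 71.9%). The log2 means were -1.13 ± 0.15 in USP8ff_CD4Cre and -0.32 ± 0.12 in USP8ff (SD, n = 2 each), so the difference exceeded the gap between the pools of either group. The same held at 4 of the 15 kept probes of the other 7 genes. The share over all kept probes was not counted, so how unusual this is cannot be read here. In bulk samples, fewer cells with the transcript and less transcript per cell cannot be told apart.

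The Usp8 difference did not pass adjustment over all genes. In limma its unadjusted p was 0.0015 and its Benjamini-Hochberg adjusted p was 0.60, and 0 of 13062 genes (0%) passed an adjusted p of 0.05. Usp8 ranked 33 of 13062 by p-value and 101 by how far the signal was lower, and 0.972% of genes had a larger difference in either direction. At an unadjusted p of 0.05, 452 genes (3.46%) were lower and 518 (3.97%) higher in USP8ff_CD4Cre. With 1 of the 4 arrays left out, the Usp8 difference ran from -0.92 to -0.71. An exact two-sided permutation test of 2 pools against 2 cannot give a p under 0.33.

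Usp8 probe 1 did not rise well above background on any of the arrays. It gave 2.89% and 2.19% of the 75th percentile in USP8ff_CD4Cre, and 3.78% and 5.54% in USP8ff. The lowest spots that the scanner software marked as well above background lay at 6.05% and 4.44% on the USP8ff_CD4Cre arrays, and at 6.86% and 5.46% on the USP8ff arrays. No fold or direction is therefore given for this probe. The other 16 probes were well above background on all 4 arrays, and no non-control spot was saturated.

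**Figure D1:**
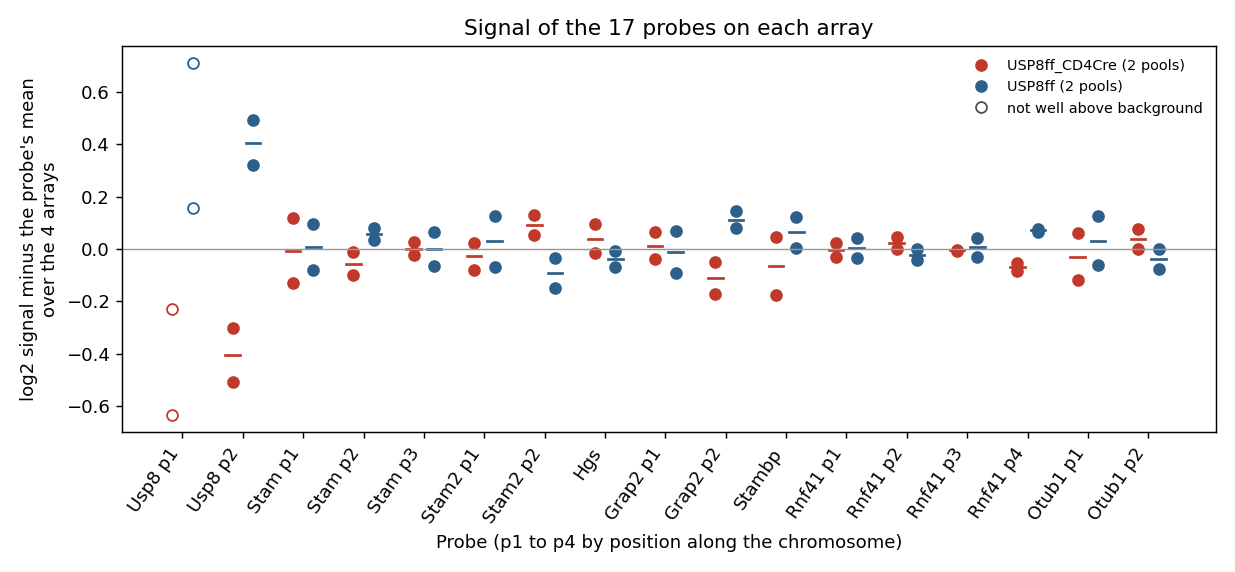
Log2 signal of each of the 17 probes on each array, minus the probe's mean over the 4 arrays, with USP8ff_CD4Cre pools left of USP8ff pools and a bar at each group's mean (n = 2) where the probe was well above background. The groups lie apart for Usp8 p2, with pools at -0.30 and -0.51 in USP8ff_CD4Cre and at 0.49 and 0.32 in USP8ff, while open circles (Usp8 p1) mark signals not well above background.

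The ESCRT-0 genes showed no difference past the test. Stam, which encodes the first STAM protein, was read by 3 probes on chromosome 2 (plus strand). Probe 3, the brightest, at 14069031 to 14069090, gave 356.1% and 344.3% in USP8ff_CD4Cre and 366.5% and 334.2% in USP8ff. Its pools overlapped, and the log2 difference was 0.00067 ± 0.12 (SE). Probe 2, at 14068753 to 14068812, gave 132.1% and 124.3% in USP8ff_CD4Cre and 140.7% and 136.5% in USP8ff. Here both USP8ff_CD4Cre pools lay below both USP8ff pools, with a difference of -0.11 ± 0.11. Probe 1, at 14060659 to 14060718, gave 19.2% and 22.8% in USP8ff_CD4Cre and 22.5% and 19.9% in USP8ff, and the pools overlapped (-0.014 ± 0.14).

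Stam2, the second STAM gene, had 2 probes on the minus strand of chromosome 2. Probe 1, at 52547771 to 52547830, gave 38.2% and 41.1% in USP8ff_CD4Cre and 38.5% and 44.1% in USP8ff. The groups overlapped, with a log2 difference of -0.06 ± 0.13. Probe 2, at 52562178 to 52562237, gave 33.8% and 35.7% in USP8ff_CD4Cre and 29.4% and 31.8% in USP8ff. Both USP8ff_CD4Cre pools were the higher ones at this probe, by 0.18 ± 0.12 on the log2 scale, and in limma the adjusted p over 19038 probes was 0.78. The 2 probes thus differed in sign, and the 95% interval of each (-0.38 to 0.26 and -0.11 to 0.48) held 0. Their first 30 bases are shown because the same transcript was read with opposite signs at these probes.
Stam2 probe 1: ttagcatttaaatatgtatttccattatgc
Stam2 probe 2: gacctgtacaataagttggtgaatgaagcg
Probe 1 had a GC content of 23.3%, and probe 2 of 45.0%.

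Hgs, the gene for HRS, which binds ubiquitin and recruits the rest of the sorting machinery, had 1 probe (chromosome 11, 120344827 to 120344886, plus strand). It gave 212.2% and 229.1% in USP8ff_CD4Cre and 204.7% and 213.6% in USP8ff. Replicate 1 of USP8ff_CD4Cre lay between the 2 USP8ff pools, so the groups overlapped. The log2 difference was 0.08 ± 0.11, with a 95% interval of -0.21 to 0.36.

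Grap2, the GADS adaptor gene, had 2 probes on the plus strand of chromosome 15. Probe 1, at 80479094 to 80479153, gave 366.7% and 341.2% in USP8ff_CD4Cre and 329.5% and 367.7% in USP8ff, with overlapping pools and a log2 difference of 0.02 ± 0.12. Probe 2, at 80479781 to 80479840, gave a dim signal, 9.21% and 8.44% in USP8ff_CD4Cre and 10.5% and 10.1% in USP8ff. Both USP8ff_CD4Cre pools lay below both USP8ff pools. The log2 difference was -0.22 ± 0.12, the most negative of the 15 partner probes, and in limma its unadjusted p was 0.11 and its adjusted p over probes 0.77. The 95% interval at probe 2 was -0.52 to 0.07, and at probe 1 -0.28 to 0.33.

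The 3 other enzymes of ubiquitin turnover also stayed short of the test. Stambp, the gene for AMSH, gave 422.8% and 362.7% in USP8ff_CD4Cre and 446.0% and 410.5% in USP8ff at its single probe (chromosome 6, 83493207 to 83493266, minus strand). Replicate 1 of USP8ff_CD4Cre lay between the 2 USP8ff pools. Its log2 difference was -0.13 ± 0.13, with a 95% interval of -0.46 to 0.21. This was the only one of the 17 probes with the letters AATAAA, the canonical polyadenylation signal, on either strand. All non-control probes held them in 4.78% of cases on the strand of the probe and in 8.80% on either strand. They are shown in capitals within bases 20 to 49 of the probe.
Stambp probe: attttcttctatAATAAAacagctcacttg
A match of letters does not show that the site is used.

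Rnf41 was read by 4 probes on the plus strand of chromosome 10. From probe 1 to probe 4 along the chromosome they began at 127875233, 127875606, 127875687 and 127878434. Probe 2, the brightest, gave 115.7% and 119.4% in USP8ff_CD4Cre and 112.4% and 115.7% in USP8ff. The 2 USP8ff_CD4Cre pools were the higher ones by a margin smaller than the digits printed, with a log2 difference of 0.04 ± 0.11. Probe 4 gave 46.1% and 47.1% in USP8ff_CD4Cre and 51.2% and 51.7% in USP8ff. There both USP8ff_CD4Cre pools were the lower ones, by a log2 difference of -0.14 ± 0.11, and in limma the unadjusted p was 0.25. Probe 1 gave 93.5% and 89.9% in USP8ff_CD4Cre and 89.9% and 94.7% in USP8ff (-0.0089 ± 0.11). Probe 3 gave 86.9% and 86.8% in USP8ff_CD4Cre and 85.4% and 89.7% in USP8ff (-0.012 ± 0.11). At probes 1 and 3 the pools of the 2 genotypes overlapped.

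Otub1 had 2 probes on the minus strand of chromosome 19. Probe 1, at 7272696 to 7272741, gave 199.9% and 176.7% in USP8ff_CD4Cre and 209.1% and 183.6% in USP8ff. The log2 difference was -0.06 ± 0.13, and in each genotype replicate 1 was the brighter pool. Probe 2 gave 50.7% and 53.5% in USP8ff_CD4Cre and 50.7% and 48.2% in USP8ff, a log2 difference of 0.08 ± 0.11. The groups overlapped at both probes. The position of probe 2, 7274035 to 7274190, spans 156 bases for a probe of 60, while that of probe 1 spans 46.

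**Figure D2:**
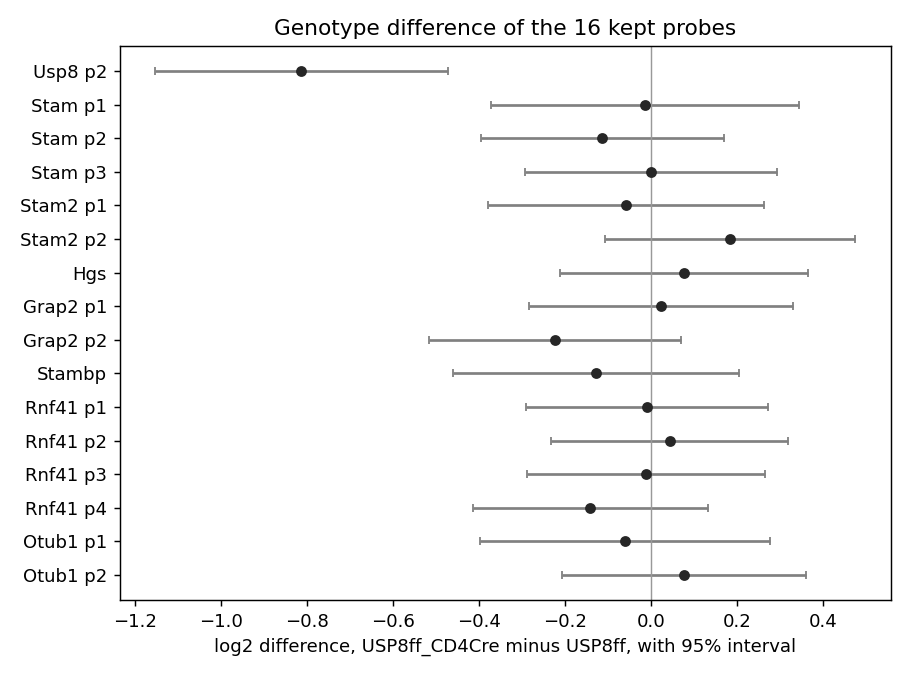
Log2 difference, USP8ff_CD4Cre minus USP8ff, of each of the 16 probes well above background, with its 95% interval from limma (2 pools per genotype). The interval of Usp8 p2 (-1.15 to -0.47 in the fit over probes) lies below 0, and those of the 15 other probes hold 0.

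Across the 7 partners, 0 of 15 probes passed adjustment in limma over 19038 probes, of which 0% passed, and 0 had an unadjusted p under 0.05, against 6.67% of all kept probes. Their log2 differences ran from -0.22 to 0.18 with a median of -0.012, beside a median of 0.013 over all kept probes. The groups did not overlap at 3 probes that were lower (all kept probes, 16.6%) and 2 that were higher (22.1%) in USP8ff_CD4Cre. For the 5 partners with several probes, both signs occurred within every gene. With the brightest probe standing for each gene, 4 partners had positive and 3 negative differences, from -0.13 (Stambp) to 0.08 (Hgs), and the median was 0.00067, beside 0.02 over all 13062 genes. Only Rnf41 among these 7 probes had groups that did not overlap, on the higher side, against 24.3% of all genes.

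The gene intervals give a range for each partner's difference at its brightest probe. All 7 gene intervals held 0, and together they ran from -0.46 to 0.36 on the log2 scale. For Hgs this corresponds to 86.9% to 127.9% of the USP8ff signal, for Stam to 82.2% to 121.8%, for Grap2 to 82.5% to 125.2% and for Rnf41 to 85.8% to 123.8%. The intervals of Stam2 (77.2% to 119.4%), Otub1 (76.2% to 120.7%) and Stambp (72.9% to 114.9%) reached further down. None of the 7 reached the Usp8 difference of -0.81. Intervals at other probes of the same genes reached further, to -0.52 at Grap2 probe 2 and to 0.48 at Stam2 probe 2. A p that misses the threshold does not show that these transcripts were equal in the 2 genotypes. With 2 pools each, no gene passed adjustment, although log2 differences over all 13062 genes ran from -2.99 to 2.09.

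Set against its partners on the same array, Usp8 was also lower. Its log2 signal minus the median of the 7 partner genes was -2.11 and -2.43 in replicates 1 and 2 of USP8ff_CD4Cre, against -1.30 and -1.50 in those of USP8ff. That median was the Otub1 signal in USP8ff replicate 1 and the Hgs signal on the other arrays. Hgs had the most positive difference of the 7 (0.08), so the value is close to Usp8 minus Hgs. For Usp8 the difference between the genotypes was -0.87 on this scale, which does not depend on a scaling factor shared by all probes of an array. No test was run on this value, and it does not show that the partners stayed constant. The offset between probes is not a comparison of transcript levels.

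**Figure D3:**
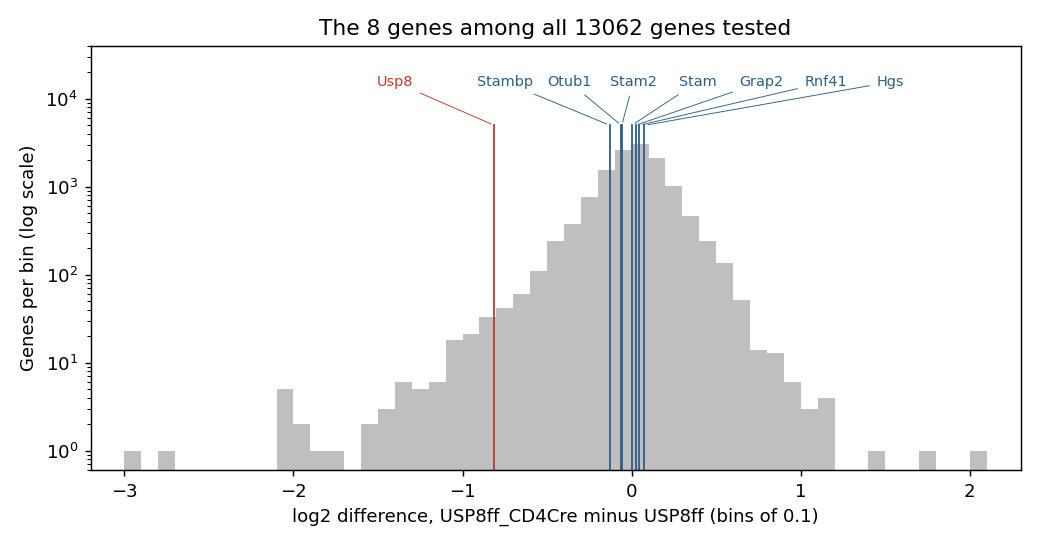
Number of genes (log scale) in bins of 0.1 of the log2 difference, USP8ff_CD4Cre minus USP8ff, over all 13062 genes, with the 8 genes marked by lines. Usp8 stands at -0.81, where 0.972% of genes had a larger difference in either direction, and its 7 partners lie between -0.13 and 0.08, inside the central bins.

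Genes around this set were taken from 5 lists of binders, complex members, relatives and substrates of USP8 or its partners. Of the 43 listed genes 37 were kept. In limma 0 passed in either direction, 22 were positive and 15 negative, and the median log2 difference was 0.03. All 7 genes of the phosphoserine-binding YWHA family, which binds USP8 in the cytosol, had positive differences (0.11 to 0.29, median 0.15). They stayed positive with quantile normalization, median scaling and normexp background correction, where the medians were 0.091, 0.15 and 0.14. Over all genes the median was 0.02, and 0.0027, 0.013 and 0.010 with these settings. The settings read the same 4 arrays and are not independent support. How many of all genes had positive differences was not counted. The largest of the 7, Ywhag, gave 179.7% and 189.5% in USP8ff_CD4Cre and 148.2% and 154.0% in USP8ff, with a log2 difference of 0.29 ± 0.11 and a limma adjusted p of 0.67. It was the 1 gene of these 37 with an unadjusted p under 0.05, beside 3.97% of all genes higher and 3.46% lower at that threshold, so the lists held no larger share than all genes.

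The CHMP subunits of ESCRT-III, which bind the MIT domains of USP8 and AMSH, had a median of -0.06 over 9 of 10 genes kept, 3 positive and 6 negative (2 and 7 with quantile normalization). Chmp2b had -0.12 ± 0.10 and Chmp2a 0.12 ± 0.10. Other sorting adaptors and ESCRT-0 associates had a median of 0.03 over 7 of 8 genes, 5 positive and 2 negative, which turned to 3 and 4 with quantile normalization (median -0.011). Tom1, an adaptor that binds ubiquitin, gave 104.2% and 113.4% in USP8ff_CD4Cre and 87.3% and 94.7% in USP8ff (0.26 ± 0.11), and the adaptor gene Gga3 had -0.08 ± 0.11. In limma the adjusted p of Tom1 was 0.69.

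Genes of the signalling complex around GADS had a median of -0.0037 over all 9 genes, 4 positive and 5 negative, and 2 and 7 with quantile normalization. The adaptor gene Grb2 had 0.10 ± 0.10. Further ubiquitin enzymes and substrates had a median of 0.03 over 5 of 9 genes, 3 positive and 2 negative. The counts turned to 2 and 3 with quantile normalization (median -0.020) and to 4 and 1 with normexp background correction (median 0.065). Stambpl1, the close relative of Stambp, had -0.11 ± 0.14, and the Hedgehog receptor component gene Smo, a substrate of USP8 known from Drosophila, had 0.10 ± 0.10. None of the 37 genes had a difference as large as that of Usp8 in either direction, but only 0.972% of all genes had a larger one.

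The genes whose pattern over the 4 arrays was most like that of Usp8 were Tlr7, Mmp11 and Asb4, out of 10475 genes with a RefSeq symbol. Likeness was the root mean square distance between log2 signals centred on each gene's own mean, and it was 0.038 for Tlr7, 0.046 for Mmp11 and 0.049 for Asb4. Tlr7 stood at -0.29 and -0.56 in USP8ff_CD4Cre and at 0.47 and 0.37 in USP8ff. Mmp11 stood at -0.26 and -0.46 in USP8ff_CD4Cre, and at 0.45 and 0.28 in USP8ff. Asb4 stood at -0.25 and -0.49 in USP8ff_CD4Cre and at 0.41 and 0.33 in USP8ff. With 4 arrays this is a description.

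The sorted cells carried the markers of their label. The summed signals of the marker lists are given without a test, and no gene passed adjustment in limma. Between 45.0% and 48.9% of probes per array were well above background. The DP markers Cd4, Cd8a, Cd8b1, Rag1, Rag2, Dntt and Cd3e were well above background on all arrays. Of 6 macrophage and dendritic cell markers 3 were kept, with summed signals of 0.92 and 1.29 times the 75th percentile in USP8ff_CD4Cre and 1.34 and 1.34 in USP8ff and a median log2 difference of -0.19, while Csf1r, Itgam and Itgax were not kept. Of 5 mature single-positive markers 4 were kept, with sums of 100.6 and 112.0 in USP8ff_CD4Cre and 89.8 and 96.4 in USP8ff but a median log2 difference of -0.65. Of 4 NK cell markers 2 were kept, with sums of 3.21 and 4.53 in USP8ff_CD4Cre and 3.16 and 2.97 in USP8ff but a median log2 difference of -0.22. For the single-positive and NK lists the sums and the median thus ran in opposite directions. Of 5 stromal markers 2 were kept, with sums of 0.26 and 0.31 in USP8ff_CD4Cre and 0.34 and 0.35 in USP8ff and a median of -0.12. Of 4 B cell markers 1 was kept, with signals of 5.27 and 4.65 in USP8ff_CD4Cre and 5.09 and 5.37 in USP8ff, and of 4 erythroid markers 0. The part of these cells in the Usp8 difference was not tested.

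The Usp8 difference kept its direction under the 13 settings run. It was -0.66 with normexp background correction, which left 63.3% of the USP8ff signal, and between -0.82 and -0.78 with the other 8 ways of processing. With 1 array left out it lay between -0.92 and -0.71. Most of these settings could not have turned the sign. The other filters, the mean of probes, the replicate block, the eBayes trend and keeping outlier spots all gave -0.81. They use the same single kept probe and the same scaling. Groups that do not overlap also keep their sign when 1 array is left out. Only quantile normalization, median scaling and normexp background correction could have turned it. The sign of Stam, Stam2, Grap2, Rnf41 and Otub1 turned under at least 1 setting, for each of them including the mean of probes. Those of Hgs and Stambp turned under none of the 13. Each of these genes had 1 probe, so the mean of probes could not turn them.

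**Figure D4:**
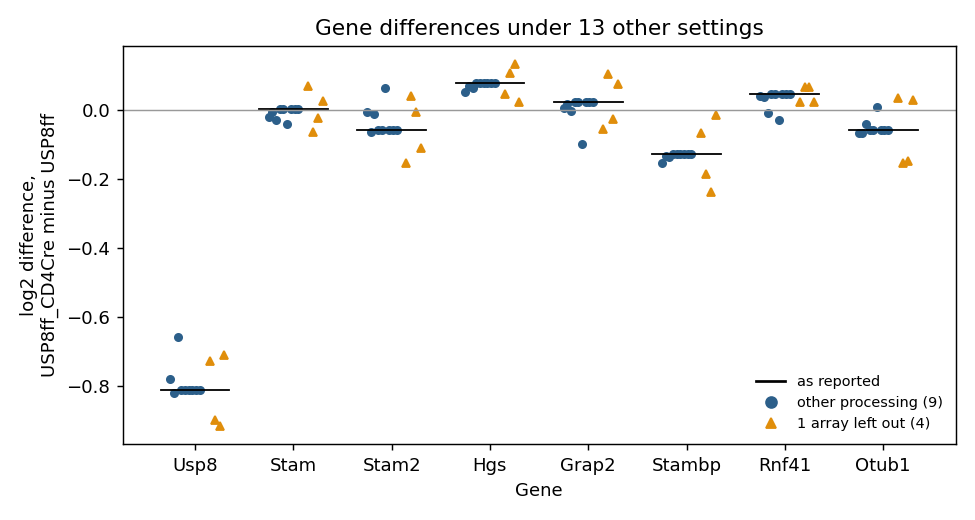
Log2 difference, USP8ff_CD4Cre minus USP8ff, of each of the 8 genes as reported (line), with 9 other ways of processing (circles) and with 1 of the 4 arrays left out (triangles). Usp8 stays between -0.92 and -0.66, and the 7 partners stay between -0.24 and 0.13.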

How the data were processed

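Cy3-labelled cRNA was made from 500 ng of RNA of sorted DP thymocytes for Agilent arrays with 1 colour, per the labels' protocols. The deposited scanner files hold spot intensities, background-subtracted and detrended within each array by Feature Extraction 10.7.3.1, per the file headers. All 4 arrays share 1 scan time. The authors' deposited table of 78 probes, with an absolute fold and a p-value, lists 0 probes of the 8 genes. A further table was not used, as its 4 value columns carry names found in no label.

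From the log2 processed signal, the array's 75th percentile (over 43379 non-control spots) was subtracted, outlier spots were dropped and spots of a probe averaged. A probe was kept if both arrays of a genotype had it well above background (19038), and the brightest stood for its gene (13062). Names came from RefSeq for 26690 probes and otherwise from the design (14484). R 4.3.3 with limma 3.58.1 (eBayes without trend, Benjamini-Hochberg, threshold 0.05) was run over genes, and again over probes for the probe values, after a test on simulated data. The genes named were the 8 members, the gene with the smallest p in each direction of each list, and the 3 patterns nearest to Usp8, except that some listed genes are not reported here. The members and lists were chosen with earlier results of these data known. Figures used matplotlib 3.10.9 in Python 3.11.15.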

Additional observations from a re-analysis of the deposited data

How the results depend on the processing

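Under the 13 alternatives, limma called 0 genes and 0 probes of the 8 genes at an adjusted p of 0.05. The adjusted p of Usp8 ranged from 0.28 to 0.9997 and its unadjusted p from 7.3e-04 to 0.0095. The replicate numbers of the 2 genotypes correlated across genes in their deviations from the group means (r = 0.32), but 2 pairs do not settle a pairing. With the replicate block the adjusted p of Usp8 was 0.28, 0 genes passed, and 641 genes were higher and 697 lower at an unadjusted p under 0.05. Signs near 0 turned. The Stam difference was -0.022 with quantile normalization, -0.0076 with median scaling, -0.031 with normexp background correction and -0.042 with the mean of its probes. With the mean of probes Stam2 had 0.063, Grap2 -0.10, Rnf41 -0.030 and Otub1 0.0078, where the alternative's construction, which averages probes of opposite sign, shows the cause. With normexp Grap2 had -0.0031 and Rnf41 -0.0091, and the cause was not tested. With 1 array left out, Stam ran from -0.066 to 0.067, Stam2 from -0.16 to 0.040, Grap2 from -0.056 to 0.10, Otub1 from -0.15 to 0.033 and Usp8 from -0.92 to -0.71. A genotype left with 1 array was assumed to vary like the other. With no filter, which adds probes not well above background, the median difference of all genes was -0.13, against 0.02 with the filter. The Usp8 difference was -0.81 in both, with no shift taken off. For dim probes, such as Usp8 probe 1, background limits what can be read.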
